A study of Mus musculus with 6 samples.

Results

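The respiratory chain genes were followed in single-nucleus RNA sequencing (snRNA-seq) of TC1 tumors. The genes were taken by name: symbols beginning with Nduf, Uqcr, Sdh (Sdha to Sdhd), Cox4 to Cox8 and Atp5, together with the 13 protein-coding genes of the mitochondrial genome. This gave 108 of the 22623 listed genes. Of these, 95 are encoded in the nucleus, as 87 subunits and 8 complex I assembly factors (Ndufaf genes), and 13 in mitochondrial DNA. The other Nduf genes were counted with complex I, except Ndufa4 and Ndufa4l2, which were counted with complex IV. No expression value entered the choice.

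The respiratory chain moves electrons from NADH (complex I) and from succinate (complex II) through complex III to oxygen at complex IV, and complex V uses the resulting proton gradient to make ATP. Complexes I, III, IV and V are each assembled from subunits made in the cytosol from nuclear genes and from core subunits made inside mitochondria, whereas complex II comes from nuclear genes alone. A nucleus preparation holds messengers of the nuclear genes, including unspliced ones, while mitochondrial transcripts can be counted only where mitochondria or their RNA stay attached to or travel with the nucleus.

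TC1 is a mouse lung tumor cell line, and the sampled tissue was the whole subcutaneous tumor, although the tissue label reads Lung. All host mice were MCT2 loxP/loxP and carried the tamoxifen-inducible Cre line mCre-Tg on a C57BL/6 background. MCT2, encoded by Slc16a7, is a pyruvate and lactate transporter. At 8 weeks of age the mice received tamoxifen (KO, 3 libraries) or vehicle (CO, 3 libraries) for 5 days, and TC1 cells were then implanted and grown for 24 days. The Cre acts throughout the host, and the deletion concerns host cells, since TC1 cells were implanted after the treatment. Tamoxifen was given to the KO group alone, so its own effect and that of the deletion cannot be told apart. The study's methods call the libraries of a group biological replicates, while the labels tie no library to an animal, and p-values measure the spread between these libraries.

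The files held 18865 barcodes, of which 18014 passed the filters (7839 CO, 10175 KO). UMIs (unique molecular identifiers, counted molecules) were lost unequally. CO replicates 1 to 3 held 16463471, 16289314 and 13252572 UMIs before filtering and 15408387, 14182289 and 7950194 after it. KO replicates 1 to 3 held 18240263, 22057084 and 18985524 before and 17797579, 15594659 and 11507993 after. Slc16a7 gave 8.57, 11.8 and 22.012 CPM (UMIs per 1000000 UMIs of the library's kept nuclei) in CO replicates 1 to 3. It gave 16.4, 7.25 and 31.5 CPM in KO replicates 1 to 3. The targeted gene was therefore not lower throughout the libraries labelled KO, although KO replicate 2 was the lowest of all libraries. These values pool host nuclei with TC1 cells, which the deletion does not concern, so they do not measure the deletion in host cells. The labels serve here as names of libraries. Of 17904 distinct barcodes, 48 (0.268%) occurred in 2 or more libraries. Per-library values follow the order CO replicates 1, 2 and 3, then KO replicates 1, 2 and 3.

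Nuclei were put in classes by counts of marker genes that hold no respiratory chain gene. The mesenchymal-like class had 9057 nuclei with a median of 5188 UMIs, and its markers (Mecom, Hmga2, Slit2 and others) do not separate TC1 cells from host stroma. The macrophage-like class (Mrc1, Csf1r, Adgre1 and others) had 4973 nuclei with a median of 1123 UMIs. The T/NK-like class (Themis, Cd247 and others) had 434 nuclei with a median of 951.5 UMIs. Nuclei with markers of several classes (742) and nuclei reaching no class (2607) were left out of the comparisons of classes. The class limits were set on the marker counts, and 7.46%, 7.38% and 5.53% of the 3 classes lay within 20% above the limit.

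The 95 nuclear members lie on 19 chromosomes of GRCm38 and have a median span of 7382 bases, against 16623 for all listed genes. They gave 382175 UMIs in the kept nuclei, and the 13 mitochondrial genes gave 5989294. Of the 108 members, 91 had over 1000 UMIs and 10 had under 200, and all 10 are nuclear-encoded subunits.

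Promoters of nuclear members are shown first, because many of these genes share binding motifs of regulators known for respiratory chain genes. A window of 300 bases (250 before and 50 after the RefSeq start) was at hand for 75 nuclear members and for 27025 genes in all. The motif of NRF1, an activator of respiratory genes, was searched on both strands as GCGCA, any base and GCGC. It occurred in 19 of the 75 windows (25.3%) and in 5.19% of all windows. The ETS motif bound by GABP, CCGGAAGT, occurred in 5 (6.67%) against 4.31% of all, and the YY1 motif AAGATGGC in 10 (13.3%) against 3.19%. At least 1 of the 3 motifs was present in 32 windows (42.7%) against 11.7% of all. By complex these were 17 of 39 windows for complex I with its assembly factors, 2 of 3 for complex II, 3 of 5 for complex III, 2 of 14 for complex IV and 8 of 14 for complex V. YY1 matches lay mostly in complex I windows, with 8 of the 10. The 150 bases before the start of 4 members follow (RefSeq, GRCm38.p6, each 5′ to 3′ along the gene), chosen to show the NRF1 and ETS motifs, alone and together, for complexes I, III, V and II; capitals mark the matches on either strand, and matches of different motifs do not overlap in these stretches.
Ndufa8, chr2:36049339-36049488, minus strand: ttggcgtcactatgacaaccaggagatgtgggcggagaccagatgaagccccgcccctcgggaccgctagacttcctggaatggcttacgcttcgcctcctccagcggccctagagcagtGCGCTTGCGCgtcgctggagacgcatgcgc
Uqcr11, chr10:80406822-80406971, minus strand: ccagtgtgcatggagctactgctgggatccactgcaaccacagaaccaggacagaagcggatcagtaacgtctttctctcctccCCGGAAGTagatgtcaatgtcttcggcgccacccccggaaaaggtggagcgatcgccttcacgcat
Atp5h, chr11:115419920-115420069, minus strand: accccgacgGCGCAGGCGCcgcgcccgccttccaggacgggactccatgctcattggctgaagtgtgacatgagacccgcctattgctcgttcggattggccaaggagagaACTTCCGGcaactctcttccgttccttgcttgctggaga
Sdha, chr13:74350241-74350390, minus strand: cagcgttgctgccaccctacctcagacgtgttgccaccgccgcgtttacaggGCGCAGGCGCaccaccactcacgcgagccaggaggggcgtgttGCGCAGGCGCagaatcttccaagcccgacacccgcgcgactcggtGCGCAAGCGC
Ndufa8 and Atp5h have 1 NRF1 match each in the stretch, Uqcr11 and Atp5h 1 ETS match each, and Sdha 3 NRF1 matches. A match is a description of the letters and not of binding, and motif presence was not compared with the expression differences.

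The main contrast among cell classes was between the genomes that encode the subunits. Messengers of nuclear-encoded subunits, summed over the 87 genes as CPM of UMIs outside the mitochondrial genome, were higher in macrophage-like than in mesenchymal-like nuclei in 6 of 6 libraries, but not in most libraries within a shared band of UMIs per nucleus. Mitochondria-encoded transcripts were several-fold lower in macrophage-like nuclei in 6 of 6 libraries, and were lower within shared UMI bands too. The first comparison asks how the chain's messengers differ between the main cell classes of the same tumors.

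In mesenchymal-like nuclei the nuclear-encoded subunits summed to 5732, 5147, 3972, 5785, 1996 and 2892 CPM. In macrophage-like nuclei they summed to 6695, 7184, 5928, 8217, 2729 and 4234 CPM. In T/NK-like nuclei they summed to 7963, 8516, 7522, 7998, 2837 and 4794 CPM. Within every library the mesenchymal-like value was the lowest of the 3 classes, and macrophage-like nuclei held 117% to 149% of it. KO replicate 2 was the lowest library in each class and KO replicate 3 the second lowest, so the order of libraries was nearly kept while the level shifted with class.

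The 13 mitochondria-encoded genes took 10.0243%, 9.22%, 6.02%, 9.72%, 5.67% and 5.66% of all UMIs in mesenchymal-like nuclei. In macrophage-like nuclei their share was 1.32%, 1.02%, 0.760%, 2.06%, 1.27% and 0.789%. In T/NK-like nuclei it was 4.33%, 2.69%, 1.26%, 3.25%, 4.85% and 1.48%. The mesenchymal-like and macrophage-like ranges did not overlap, and T/NK-like nuclei lay between them in every library. Nuclei with over 20% mitochondria-encoded UMIs had been removed, which caps these shares.

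**Figure D1:**
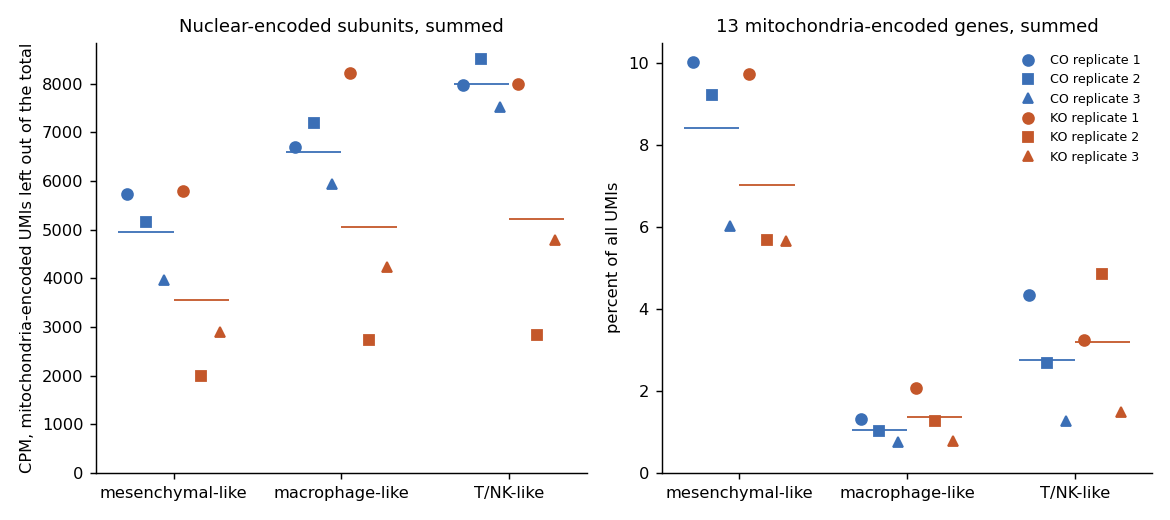
Summed level of the 87 nuclear-encoded subunits (left, CPM with mitochondria-encoded UMIs left out of the total) and of the 13 mitochondria-encoded genes (right, percent of all UMIs) in 3 classes; each point is a library and each horizontal line a group mean of 3 libraries. Nuclear-encoded sums were lowest in mesenchymal-like nuclei in every library (in a shared UMI band they were not), whereas the mitochondria-encoded share was highest there.

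Expressed as a ratio, mesenchymal-like nuclei held 19.4, 19.7, 16.1, 18.6, 30.1 and 20.7 mitochondria-encoded UMIs per UMI of a nuclear-encoded subunit. Macrophage-like nuclei held 2.00, 1.44, 1.29, 2.56, 4.71 and 1.88, and T/NK-like nuclei 5.69, 3.25, 1.70, 4.20, 17.95 and 3.13. The ratio was thus lowest in macrophage-like nuclei in every library and highest in KO replicate 2 in each class. Markers of the mesenchymal-like class were also counted in the other classes. In macrophage-like nuclei they stood at 3.97% to 11.6% of their mesenchymal-like level, beside 10.2% to 21.4% for mitochondria-encoded transcripts. In T/NK-like nuclei the marker level was 4.46% to 16.0% and the mitochondria-encoded level 19.9% to 84.8%. The marker level was highest in KO replicates 2 and 3 in both classes, and the part of carried-over mesenchymal-like RNA in the mitochondria-encoded levels was not tested.

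Gene by gene, 98 members could be tested between macrophage-like and mesenchymal-like nuclei with edgeR's quasi-likelihood test on sums per library, with the library as a block. A gene was called at an absolute log2 fold change of at least 0.58 and a Benjamini-Hochberg adjusted p of at most 0.05 over all genes tested. In macrophage-like nuclei 51 members were called higher and 14 lower, where 26.1% and 26.9% of all genes tested were called. The members called higher were 49 nuclear-encoded subunits and the assembly factors Ndufaf3 and Ndufaf6. All 13 mitochondria-encoded genes and the assembly factor Ndufaf7 were called lower. The median log2 fold change was 0.64 over 77 nuclear-encoded subunits (75 above 0), −2.70 over the mitochondria-encoded genes and −0.00 over all genes tested.

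The 5 complexes moved alike in this comparison. Complex I had 20 of 36 tested nuclear-encoded subunits called higher (median 0.65), and its core subunit genes of mitochondrial DNA all fell. Complex II had 3 of 4 called higher (median 0.60), complex III 7 of 8 (0.63), complex IV 7 of 11 (0.64) and complex V 12 of 18 (0.72). Messengers of the cytosolic ribosome, taken as a measure of spliced cytoplasmic RNA, had a median of 0.74 with 55 of 86 called higher.

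Atp5e, the epsilon subunit of the ATP synthase head, had the largest rise of any member. Its level on the scaled CPM of the fit (CPM on library sizes adjusted by the trimmed mean of M-values, TMM) was 59.1, 54.7, 49.9, 59.9, 16.9 and 32.5 in mesenchymal-like nuclei. In macrophage-like nuclei it was 99.5, 136, 155, 119, 46.1 and 79.4, higher in 6 of 6 libraries. The log2 fold change was 1.20 (SE 0.12, adjusted p = 4.5e-07, edgeR), and it was −0.11 among nuclei of 1000 to 2000 UMIs.

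Sdhb, the iron-sulfur subunit of complex II, rose by nearly as much. It had 55.9, 56.2, 41.9, 52.4, 29.9 and 34.1 scaled CPM in mesenchymal-like and 116, 108, 109, 88.8, 102 and 104 in macrophage-like nuclei. The groups did not overlap, and the log2 fold change was 1.20 (SE 0.13, adjusted p = 1.2e-06, edgeR). The other complex II subunits differed less. Sdhc and Sdhd, which anchor the complex in the membrane, had log2 fold changes of 0.61 and 0.60, both called, and the flavoprotein Sdha had 0.41, under the fold limit. Uqcrb of complex III followed with 1.12, and Ndufa1 and Ndufa5, accessory subunits of complex I, with 1.06 and 1.02.

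Among the most abundant members, Cox5a of complex IV rose from 95.7 ± 39.9 to 190.4 ± 64.5 scaled CPM (mean ± SD over 6 libraries), a log2 fold change of 1.01. Cox7c rose by 0.62, and Cox8a, the most abundant nuclear member, had 0.49, under the fold limit. Atp5b, the catalytic beta subunit of complex V, rose by 0.71 and Atp5f1 by 0.76, while Atp5g2, a source of the c ring, had 0.39. Uqcrh, Uqcrc2 and Uqcrq of complex III rose by 0.60, 0.61 and 0.64, and Ndufc1 of complex I by 0.75. Ndufs4, an accessory subunit of complex I, had 0.18, and the assembly factor Ndufaf2 −0.29, neither called.

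The mitochondria-encoded genes fell together, between −2.99 and −2.46 on the log2 scale. mt-Nd3, a complex I core subunit, had 1150, 963, 712, 1138, 799 and 703 scaled CPM in mesenchymal-like nuclei. In macrophage-like nuclei it had 125, 75.3, 65.2, 180.3, 161 and 109.8. The highest macrophage-like library thus lay well under the lowest mesenchymal-like one, and the log2 fold change was −2.99 (SE 0.16, adjusted p = 9.9e-10, edgeR). mt-Nd1 and mt-Cytb followed at −2.85 each, mt-Atp6 at −2.77 and mt-Nd4l at −2.75, and mt-Co1, the catalytic subunit of complex IV, fell least at −2.46. mt-Atp6 and mt-Atp8 share 43 bases, and mt-Nd4 and mt-Nd4l share 7, so counts of these pairs may not be fully separate.

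Depth differed between the classes, and it moved with the nuclear-encoded level. In mesenchymal-like nuclei the nuclear-encoded subunits summed to 9319, 9133, 9232, 8786, 4958 and 7450 CPM in nuclei of 500 to 1000 UMIs. In mesenchymal-like nuclei of 5000 UMIs and over they summed to 5671, 5024, 3761, 5517, 1949 and 2655. The level fell from each depth band to the next in every library, in macrophage-like nuclei too.

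Between 1000 and 2000 UMIs mesenchymal-like nuclei had 6707, 6983, 6182, 7152, 2945 and 4869 CPM, and macrophage-like nuclei 6677, 7107, 6096, 7866, 2971 and 4113. Macrophage-like nuclei were the higher of the pair in 2, 3 and 2 of 6 libraries in the bands starting at 500, 1000 and 2000 UMIs. The mitochondria-encoded share in the same 1000 to 2000 band was 6.83%, 5.08%, 2.58%, 7.67%, 5.13% and 2.23% in mesenchymal-like nuclei. In macrophage-like nuclei it was 1.03%, 0.987%, 0.577%, 2.01%, 1.17% and 0.622%, lower in 6 of 6 libraries in this band and in each of the other bands with values. For T/NK-like nuclei, 5 libraries had enough nuclei in the bands starting at 500 and 1000 UMIs. Their nuclear-encoded sum was above the mesenchymal-like one in 2 and 3 of 5 libraries, and their mitochondria-encoded share below it in 3 and 5 of 5.

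**Figure D2:**
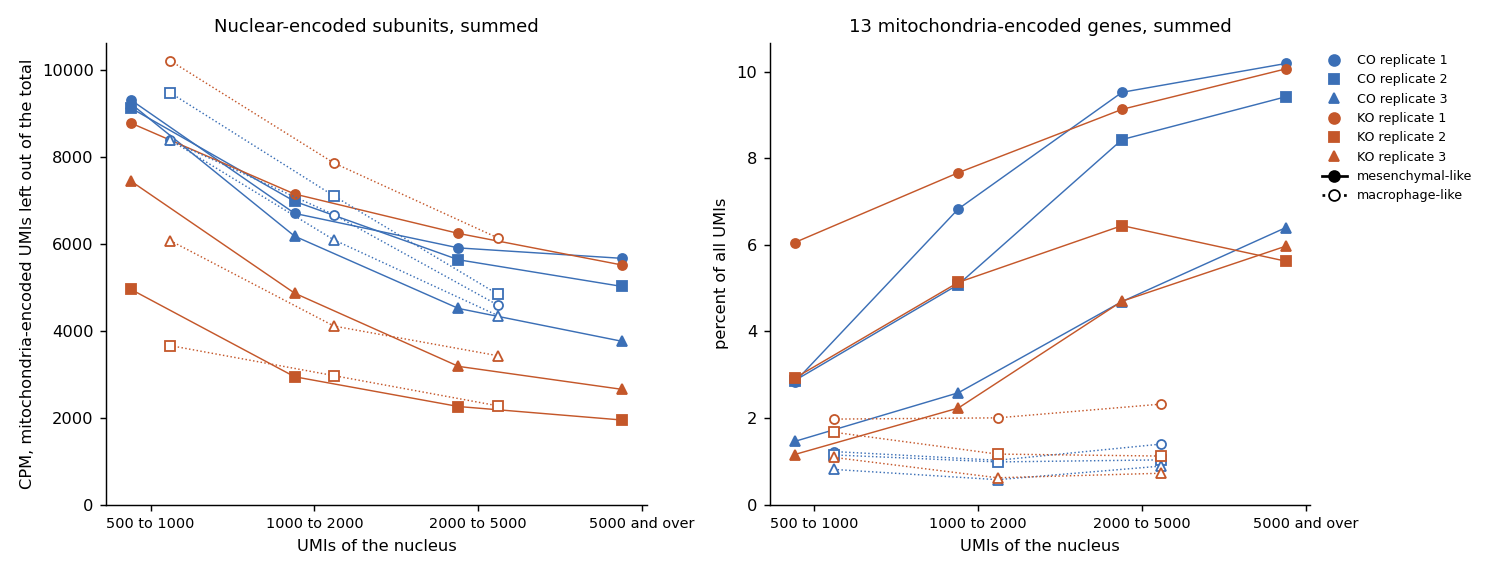
Summed nuclear-encoded subunits (left, CPM) and mitochondria-encoded share (right, percent of all UMIs) in bands of UMIs per nucleus, for mesenchymal-like (filled, solid lines) and macrophage-like nuclei (open, dotted lines) of each library. Within a band the nuclear-encoded sums of the classes lie near each other in most libraries, and the mitochondria-encoded share is lower in macrophage-like nuclei in each band with values for both classes. Macrophage-like nuclei have no value at 5000 UMIs and over.

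The same fit on nuclei of 1000 to 2000 UMIs alone, chosen after the dependence on depth was seen, tested 68 members. None of 56 nuclear-encoded subunits was called higher by edgeR, 1 was called lower, and 26 of the 56 had a log2 fold change above 0. Their median was −0.01, against −0.06 over all genes and −0.04 over ribosomal messengers. Of the 68 members 15 had an unadjusted p under 0.05, and DESeq2 was not run on these nuclei. All 11 mitochondria-encoded genes tested were called lower, with a median of −2.24, mt-Cytb being lowest at −2.45. Sdhb kept 0.52 but was not called (adjusted p = 0.11, edgeR). The higher nuclear-encoded level of macrophage-like nuclei was thus seen over all nuclei and not within this band, and the lower mitochondria-encoded level was seen in both. A band does not make depth equal, as the median in it was 1614, 1589.5, 1525.5, 1658, 1445 and 1354 UMIs in mesenchymal-like and 1279, 1323, 1341, 1260.5, 1374 and 1373 in macrophage-like nuclei. The band held 73, 64, 68, 225, 95 and 121 of the 9057 mesenchymal-like nuclei, a small and shallow part of a class with a median of 5188 UMIs. It held 376, 551, 216, 800, 82 and 445 of the 4973 macrophage-like nuclei.

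**Figure D3:**
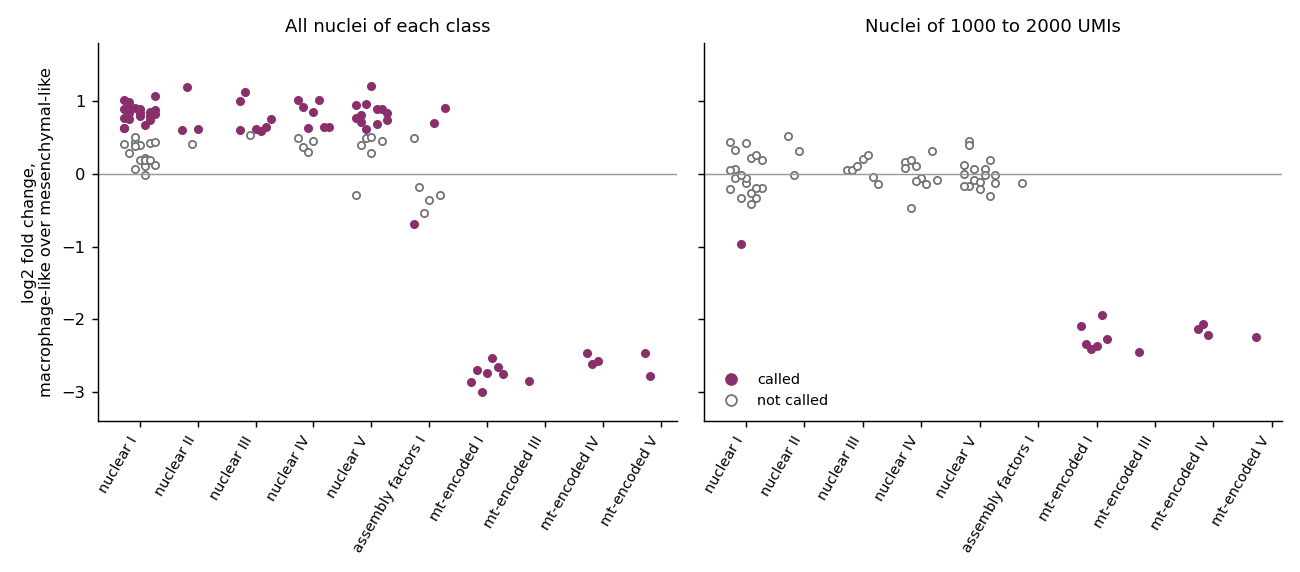
Log2 fold change of each member between macrophage-like and mesenchymal-like nuclei (edgeR), by complex and by the genome that encodes it, with all nuclei (left) and nuclei of 1000 to 2000 UMIs (right); filled points were called. Nuclear-encoded subunits sit around 0.64 on the left and around −0.01 on the right, and mitochondria-encoded genes near −2.70 and −2.24.

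T/NK-like nuclei showed a related pattern with fewer nuclei, as few as 30 in KO replicate 2. Of 98 members, 28 were called higher than in mesenchymal-like nuclei and 15 lower, where 14.1% and 19.6% of all genes tested were called. DESeq2 called 18 higher and 13 lower. The median log2 fold change was 0.62 over nuclear-encoded subunits and −1.75 over mitochondria-encoded genes, with −0.17 over all genes, while within the 2 lower UMI bands the nuclear-encoded sum was higher in 2 and 3 of 5 libraries. The largest rises were those of Atp5g3 (1.45), Ndufb6, Ndufa2, Atp5e (1.33 each) and Ndufv3 (1.31). Atp5g3, another source of the c ring of complex V, had 61.5, 57.6, 44.3, 64.5, 34.5 and 44.8 scaled CPM in mesenchymal-like nuclei. In T/NK-like nuclei it had 112, 166, 115, 112, 114 and 206, with no overlap and a log2 fold change of 1.45 (SE 0.25).

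Of the members lower in T/NK-like nuclei, 13 were mitochondria-encoded, led by mt-Nd4l (−2.33), mt-Nd3 (−2.10), mt-Nd1 (−1.97) and mt-Nd6 (−1.93). Of these, mt-Nd4l and mt-Nd6 rest on few UMIs. They made up 0.104% to 0.171% and 0.0302% to 0.125% of the mitochondria-encoded UMIs, which numbered 802 to 3310 per library in this class. The other 2 members called lower were nuclear. Ndufab1, the mitochondrial acyl carrier protein, had 21.7 to 31.2 scaled CPM in mesenchymal-like nuclei and 28.0, 0, 14.4, 10.2, 0 and 0 in T/NK-like nuclei, and DESeq2 did not call it. A feature with the symbol Atp5o (ENSMUSG00000116933) had 42.6 to 123 and 14.0, 0, 28.7, 40.7, 0 and 0, a log2 fold change of −2.71. This feature spans 242585 bases of chromosome 16 (91684398 to 91926982, minus strand), overlaps 4 genes on its own strand and 3 on the other, and touches the compact Atp5o gene (ENSMUSG00000022956, 91925214 to 91931687). Its counts therefore cannot be assigned to Atp5o with certainty.

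Genes that build or control the chain without belonging to it were counted from lists. Of 33 tested assembly factors and carriers outside the Ndufaf genes, macrophage-like nuclei had 9 higher and 4 lower, where 26.1% and 26.9% of all genes were called. Their median was 0.21, and among nuclei of 1000 to 2000 UMIs 1 was higher and 1 lower of 8 tested (median −0.02). Cycs, which encodes cytochrome c, rose by 0.83 and Oxa1l, the inner membrane insertase, by 1.18, while Ttc19 and Cox11, which assemble complexes III and IV, fell by 0.94 and 0.98. Of 20 genes that control or express mitochondrial DNA, 3 were higher and 2 lower, shares below those of all genes. The coactivators Ppargc1a and Ppargc1b moved in opposite directions. Ppargc1a had 12.5 to 27.4 scaled CPM in mesenchymal-like and 0 to 4.35 in macrophage-like nuclei (log2 fold change −3.53), whereas Ppargc1b had 6.15 to 7.05 and 30.0 to 93.0 (3.1). Esrra, their nuclear receptor partner, rose by 0.71, Polg2 by 0.66, and the mitochondrial helicase Twnk fell by 0.97. Tfam, which packages mitochondrial DNA, had −0.07 and was not called. Ucp2, the only 1 of 3 uncoupling protein genes that could be tested, had 1.61 to 6.58 scaled CPM in mesenchymal-like and 36.2 to 94.5 in macrophage-like nuclei, a log2 fold change of 4.21, and 3.21 in T/NK-like nuclei. For macrophage-like against mesenchymal-like nuclei of 1000 to 2000 UMIs, 4 of the 20 control genes could be tested, with 1 called higher and 0 lower. No uncoupling protein gene could be tested there.

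The second comparison, between the libraries labelled KO and CO, asks whether the chain's messengers differed after tamoxifen. In mesenchymal-like nuclei the nuclear-encoded subunits averaged 4950 ± 896 CPM in CO and 3557 ± 1981 in KO (SD, n = 3). In macrophage-like nuclei the means were 6602 ± 633 and 5060 ± 2836, and in T/NK-like nuclei 8000 ± 498 and 5210 ± 2606. The KO libraries were not alike. KO replicate 1 was at or above the CO mean in mesenchymal-like and macrophage-like nuclei, and KO replicates 2 and 3 were below all 3 CO libraries in each class.

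No member was called in mesenchymal-like, macrophage-like or all kept nuclei by edgeR, where 0 of 13091, 0 of 9825 and 0 of 13691 genes were called in all (0%). At an unadjusted p under 0.05 there were 0 of 99, 4 of 96 and 0 of 100 members, and DESeq2 called no member. In mesenchymal-like nuclei 72 of 78 nuclear-encoded subunits had a log2 fold change below 0, with a median of −0.46, against −0.02 over all genes tested. The median was −0.29 in macrophage-like nuclei (66 of 76 below 0) and −0.45 in all nuclei (73 of 79). Ribosomal messengers had −0.49 and −0.28 in the same 2 classes. Groups that did not overlap, with KO lower, were found for 1 member in mesenchymal-like nuclei, where 5.56% of all genes tested had this pattern. There were 3 such members in macrophage-like nuclei (5.44% of all genes) and 3 in all nuclei (5.09%), shares at or below the background.

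The complexes differed in how far they varied between libraries. In mesenchymal-like nuclei complex I subunits summed to 1880.2, 1678, 1339.9, 1878, 795 and 1046 CPM. Complex IV subunits summed to 1431, 1284, 929.9, 1504, 348 and 605, and complex V subunits to 1712, 1555, 1177, 1689, 534 and 816. Complex III subunits summed to 485, 419.7, 336, 495, 155 and 248. KO replicate 2 was lowest and KO replicate 3 second lowest throughout. Complex II moved least, with 224, 210.3, 189.7, 218, 163 and 178 CPM. The highest library exceeded the lowest 4.32-fold for complex IV, 3.21-fold for complex V, 3.19-fold for complex III, 2.36-fold for complex I and 1.38-fold for complex II, and 3.56-fold for the cytosolic ribosome messengers.

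Single subunits of mesenchymal-like nuclei ranged widely within KO replicate 2. Over the 77 nuclear-encoded subunits with at least 200 UMIs, its level was 13.5% to 106% of the CO mean (median 33.4%), and 58 were under 50%. KO replicate 3 held 34.3% to 120% (median 57.3%), with 20 under 50%, and KO replicate 1 held 90.6% to 148% (median 117%). The lowest in KO replicate 2 were Atp5g1 (13.5%), Atp5d (15.6%), Ndufb9 (15.9%) and Cox8a (17.4%), of which Ndufb9 lies within a readthrough gene on its strand. Those nearest to or above the CO mean were Ndufs1 (106%), Ndufv2 (105%) and Sdhc (105%), with Sdha at 92.2%, Ndufs4 at 91.4% and Uqcrc2 at 81.7%. These genes were picked after their values were seen. Ndufs1 and Ndufv2 hold iron-sulfur clusters of the NADH-oxidizing arm of complex I.

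Cox8a, a small subunit of complex IV, showed the split between libraries plainly, with 304, 269.9, 171, 328, 49.4 and 107 scaled CPM. KO replicate 1 was the highest of the 6 and KO replicate 2 the lowest, and KO differed from CO by −0.62 on the log2 scale (SE 0.63). Ndufs4 had 150.1, 153, 158, 160.2, 160.3 and 152 scaled CPM, with hardly any spread and a log2 fold change of 0.04 (SE 0.13). Sdha was equally even, at 86.1, 79.2, 75.4, 81.7, 84.4 and 75.8 (0.01, SE 0.13).

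**Figure D4:**
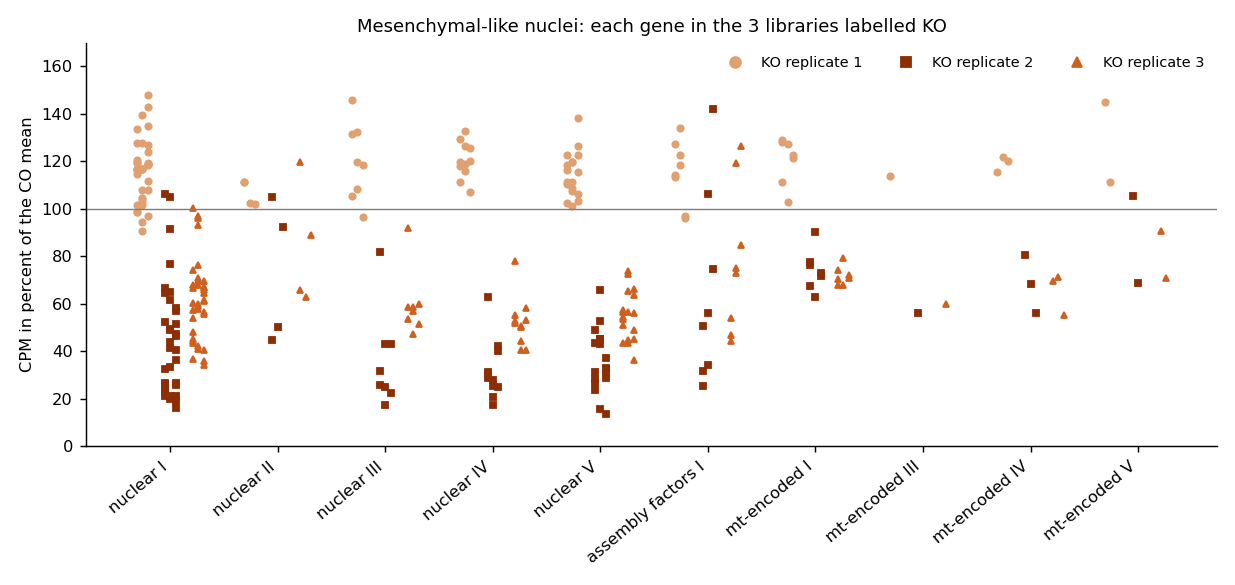
Level of each member in mesenchymal-like nuclei of the 3 libraries labelled KO, in percent of the mean of the 3 CO libraries (CPM with mitochondria-encoded UMIs left out of the total), by complex; each point is a gene with at least 200 UMIs. KO replicate 2 lies lowest for most nuclear-encoded subunits (median 33.4%), KO replicate 3 is between (57.3%) and KO replicate 1 lies above the CO mean (117%).

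In mesenchymal-like nuclei short subunit genes tended to have the lower KO to CO log2 fold changes, taken over all 3 KO libraries. Across 78 nuclear-encoded subunits, Spearman's correlation between gene span and the KO to CO difference (log2) of mesenchymal-like nuclei was 0.52. Across 13081 genes it was 0.57, so the members followed the relation seen over the whole list. The 39 members shorter than the median of 7717 bases had a median log2 fold change of −0.57 and the 39 longer ones −0.38. Ndufs4 spans 100464 bases, Sdha 28027 and Ndufs1 33238, against 2464 for Cox8a and 6819 for Atp5g1. In macrophage-like nuclei the correlation was 0.08 over 76 members and 0.42 over all genes. Genes share their libraries here and are not independent replicates, and the part of spliced, cytoplasmic RNA in the differences between libraries was not tested. The median depth of mesenchymal-like nuclei was 7357 UMIs in KO replicate 2 and 3317 to 5885.5 in the other libraries, and KO replicate 2 was the lowest library in every depth band.

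The members with the smallest p in mesenchymal-like nuclei did not pass. Uqcrc1, a core protein of complex III, had 45.1, 45.1, 42.6, 42.7, 21.8 and 28.2 scaled CPM (log2 fold change −0.52, SE 0.25). Ndufab1 had 30.6, 26.4, 27.2, 25.4, 19.7 and 21.1 (−0.35, SE 0.17), and was the member whose KO libraries all lay below the CO libraries. Sdhc had 37.2, 33.1, 37.4, 39.9, 43.0 and 45.7 (0.26, SE 0.15), with all KO libraries above all CO libraries, as was also so for the assembly factor Ndufaf6. These were 2 of 99 members, where 888 of 13091 genes tested had this pattern, a share of members below the background. Ndufs8 and Ndufb10 of complex I had −0.89 and −0.84. The adjusted p was 0.609 for each of these 5 genes tested by edgeR.

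Leaving out KO replicate 1 changed the count of calls. In mesenchymal-like nuclei 48 members were then called lower and none higher, 46 of them nuclear-encoded subunits, with 13.1% of all genes called lower. By complex these were 17 of 36 for complex I, 1 of 4 for complex II, 5 of 8 for complex III, 10 of 12 for complex IV and 13 of 18 for complex V, and 56 of 86 ribosomal messengers were called lower as well. The subunits' median was −1.02. In macrophage-like nuclei 40 members were called lower, 38 of them subunits (median −0.80), with 10.6% of all genes. In all kept nuclei none was called, with 66 members at an unadjusted p under 0.05 in edgeR. Leaving out any other library gave 0 calls in each comparison. The 2 remaining KO libraries were the ones with low levels, so these calls describe those libraries.

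Mitochondria-encoded genes were also lower in KO replicates 2 and 3 of mesenchymal-like nuclei, by less than most nuclear ones. In mesenchymal-like nuclei their share averaged 8.42% ± 2.12 in CO and 7.01% ± 2.34 in KO, with a median log2 fold change of −0.10 over the 13 genes. KO replicate 2, in which the median nuclear-encoded subunit stood at 33.4% of the CO mean, held 56.1% to 106% for the 13 genes (median 71.6%). KO replicate 3 held 55.3% to 90.9% (median 70.8%) beside a nuclear-encoded median of 57.3%, and KO replicate 1 was above the CO mean for both (medians 121% and 117%). Without KO replicate 1, 12 of the 13 genes had a log2 fold change below 0 (median −0.34), and none was called by edgeR. In macrophage-like nuclei the share averaged 1.04% ± 0.280 in CO and 1.37% ± 0.641 in KO, and the log2 fold change was above 0 for 12 of 12 genes (median 0.54). The rise was largest in KO replicate 1, in which 10 genes with at least 200 UMIs had a median of 207% of the CO mean. The median was 127% in KO replicate 2, where all 10 were above the CO mean. It was 80.6% in KO replicate 3, where 9 of the 10 were below the CO mean. Without KO replicate 1 the median log2 fold change was 0.13, with 3 of 11 tested genes below 0, and the KO minus CO difference in share went from 0.337 to −0.0058 percentage points.

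The members with the smallest p in macrophage-like nuclei were mostly mitochondria-encoded. mt-Nd5, a complex I core subunit, had 45.7, 29.0, 32.7, 86.9, 85.8 and 36.5 scaled CPM (log2 fold change 0.93, SE 0.36). mt-Nd4l had 27.4, 14.9, 14.2, 46.8, 41.3 and 23.8 (0.96, SE 0.38), and mt-Nd3 had 0.71. KO replicates 1 and 2 were high for both, and KO replicate 3 lay within the CO range. The nuclear genes Ndufaf4 and Cox6b1 had −0.62 and −0.49, with CO above KO in all libraries, as for Sdhb (−0.24). All 5 of the rule's genes had an adjusted p of 0.844 by edgeR. The share of mesenchymal-like markers in macrophage-like nuclei was 3.97%, 4.31%, 5.68%, 5.53%, 9.71% and 11.6% of the mesenchymal-like level. It was highest in KO replicates 2 and 3, of which KO replicate 2 was high for mt-Nd5 and mt-Nd4l and KO replicate 3 was not. Its part in the mitochondria-encoded values was not tested.

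Over all kept nuclei, Ndufab1 (−0.37), Uqcrc1 (−0.50), Ndufb2 (−0.41), Atp5f1 (−0.47) and the compact Atp5o gene (−0.64) had the smallest p, each with an adjusted p of 0.677 by edgeR. Ndufb2 had 14.0, 12.9, 13.2, 12.2, 8.53 and 9.46 scaled CPM, with all KO libraries below CO, and shares its span with the readthrough gene Gm42420.

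An interaction term of class and group tested if the KO to CO difference in macrophage-like nuclei was unequal to that in mesenchymal-like ones. No member of 99 was called by edgeR (1 of 12546 genes was, 0.00797%), the unadjusted p was under 0.05 for 11 of them, and by DESeq2 none was called. The median interaction was 0.66 over the 13 mitochondria-encoded genes, all above 0, and 0.07 over nuclear-encoded subunits, against 0.08 over all genes. It was 1.05 for mt-Nd4l, 0.86 for mt-Nd3 and mt-Nd5, 0.68 for mt-Co1 and 0.66 for mt-Co3, with adjusted p of 0.535 to 0.589 by edgeR.

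The make-up of the mitochondria-encoded transcripts also varied. mt-Co3, mt-Cytb, mt-Atp6, mt-Co1 and mt-Co2 made up 81.8% to 83.7% of mitochondria-encoded UMIs in the 6 libraries. In macrophage-like nuclei the complex IV genes mt-Co1, mt-Co2 and mt-Co3 took a larger share of them than in mesenchymal-like nuclei of the same library in 6 of 6 libraries. mt-Nd1, mt-Nd3, mt-Cytb and mt-Atp6 took a smaller share in 6 of 6. In T/NK-like nuclei mt-Co1 and mt-Co3 were larger and mt-Nd1 and mt-Nd4l smaller in 6 of 6, with few UMIs for mt-Nd4l.

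The ratio of mt-Co1 to mt-Cytb UMIs in mesenchymal-like nuclei was 0.851, 0.819, 0.862, 0.855, 1.20 and 0.982. In macrophage-like nuclei it was 1.22, 1.04, 0.996, 1.47, 1.42 and 1.15. The ratio of mt-Co3 to mt-Co1 in mesenchymal-like nuclei was 1.96, 1.96, 2.00, 2.04, 1.37 and 1.56. In mesenchymal-like nuclei KO replicates 2 and 3, the libraries low in nuclear-encoded subunits, thus stood apart from the other 4, which lay close together. In macrophage-like nuclei KO replicate 1 had the highest ratio of mt-Co1 to mt-Cytb and KO replicate 3 lay within the CO range. On this ratio the libraries that stood apart were thus not the same in both classes. On the ratio of mt-Co3 to mt-Co1, KO replicates 2 and 3 were the lowest in macrophage-like nuclei too, at 1.398 and 1.535. KO replicate 1 lay near them at 1.564, and CO spanned 1.651 to 1.969. In T/NK-like nuclei KO replicates 2 and 3 had 1.256 and 1.541. There KO replicate 1 had 1.731 and CO spanned 1.791 to 1.833.

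**Figure D5:**
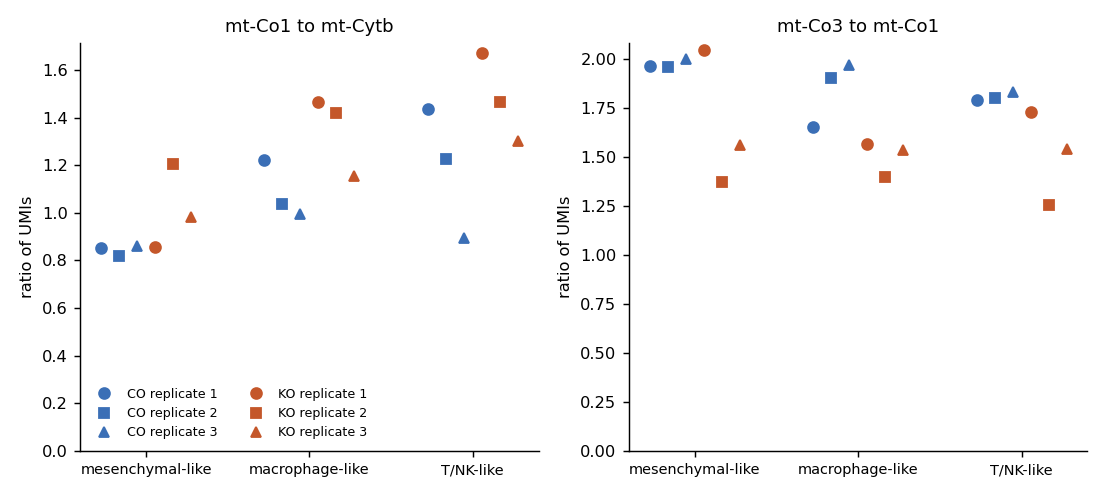
Ratio of mt-Co1 to mt-Cytb UMIs (left) and of mt-Co3 to mt-Co1 UMIs (right) per library in 3 classes; each point is a library. In mesenchymal-like nuclei 4 libraries lie together in each panel and KO replicates 2 and 3 lie apart from them.

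Several subunits exist as isoforms tied to tissue or oxygen. In the pooled kept nuclei the widely expressed forms led: Cox8a had 253 CPM of all UMIs, Cox6a1 114, Cox7a2 110.1 and Cox6b1 57.3. The alternative forms were rare, with 24 UMIs in all for Cox6a2 and for Ndufa4l2, 46 for Cox7a1, 56 for Cox6b2, 147 for Cox4i2, 8 for Cox8b and 2 for Cox7b2. In 44 skeletal muscle-like nuclei the muscle form Cox6a2 had 4 of its 24 UMIs (47.7 CPM), against 10 (0.163 CPM) in mesenchymal-like nuclei. Cox8b had 2 of its 8 UMIs there, and Cox7a1 had 0 there and 31 of its 46 in mesenchymal-like nuclei. These counts are too few for a test.

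For the c ring of complex V, Atp5g2 had the most UMIs of the 3 genes in mesenchymal-like nuclei (7693, against 3271 for Atp5g3 and 2701 for Atp5g1). Cox4i2, the oxygen-responsive form of subunit 4, had 124 UMIs (2.02 CPM) in mesenchymal-like and 6 (0.934 CPM) in macrophage-like nuclei, which is too few for a comparison.

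Cox4i1, Ndufa13 and Cox8c had 0 UMIs in every nucleus, although Cox4i1 and Ndufa13 encode subunits that every respiring cell uses. Cox4i1 (chromosome 8, 120668222 to 120674207, plus strand) lies wholly within Gm20388 on the same strand and shares 154 exon bases with Emc8 on the other. Ndufa13 (chromosome 8, 69894180 to 69902558, minus strand) lies wholly within Yjefn3 on its strand and shares 375 exon bases with Tssk6. These genes are therefore only listed at 0, and nothing is read from it. In all, 20 members overlap another gene on the same strand and 38 one on the opposite strand. Strand and intron use in the counting are not given in the sources used here, so reads of such pairs may not have been told apart.

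The rarer classes were too small for a fit. Endothelial-like nuclei numbered 73, with 5 to 21 per library, and had 5919, 6217, 4874, 5955, 2223 and 3546 CPM of nuclear-encoded subunits. Their mitochondria-encoded share was 1.77%, 4.82%, 3.03%, 10.1%, 3.63% and 4.29%. KO replicate 2 was again the library with the lowest nuclear-encoded level. The 53 adipocyte-like nuclei had 7 to 38 UMIs of nuclear-encoded subunits per library, and the 20 host fibroblast-like nuclei 5 to 87, which is too little to set libraries apart.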

How the data were processed

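Nuclei of frozen whole tumors were sequenced with droplet-based 3′ chemistry, 6 libraries in all, and some samples received extra washes (which ones is not stated). The authors deposited raw UMI counts per gene and barcode, made with Cell Ranger on GRCm38 (version 3.0.2 in the submitters' notes, 3.1.0 in the file headers, with Seurat 5.2.1 also named). All deposited counts were whole numbers, although the study's methods name a step against free RNA, so it is unclear if that step precedes them. Groups came from the sample titles.

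Nuclei with 100 to 7500 genes and at most 20% mitochondria-encoded UMIs were kept. A class needed at least 3 of its markers and a marker level of at least 0.5 of the class reference, with no other class above 0.5. No doublet caller was run; nuclei passing for several classes were left out. Counts were summed per class and library and tested with edgeR 4.0.16 (quasi-likelihood, TMM, low-count filter; R 4.3.3) on all genes with Benjamini-Hochberg adjustment. The edgeR script was tested on simulated data. Alternatives were DESeq2 1.42.0, other scalings, filters and class limits, a replicate block and leaving out each library. A chi-square of replicates' summed counts per degree of freedom was 8.60 to 195, well above sampling noise. A value below 20 nuclei per class, library and depth band was not computed. Sums over members have no p.

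Members, lists and comparisons were chosen with earlier results of these data known. Genes were named by rule: the 3 members with the most UMIs per complex, the Sdh and mitochondria-encoded genes, the isoforms, and per comparison the 5 smallest p or, among calls, the 5 largest changes each way; others were picked after their values were seen. Genes called but not named singly include a gene that is not reported here. A list of RNAs retained in nuclei could not be used, since 1 of its genes was listed. Positions are from GENCODE vM21.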

Additional observations from a re-analysis of the deposited data

How the results depend on the processing

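Calls between classes depended on the rows and nuclei used. For macrophage-like against mesenchymal-like nuclei, 65 members were called, 41 without the mitochondria-encoded rows and 12 among nuclei of 1000 to 2000 UMIs, an alternative chosen after seeing the data, as was the stricter class limit; fewer genes enter both. For T/NK-like nuclei the count went from 43 to 23 without those rows. In both comparisons the 13 mitochondria-encoded genes were called, so part of each drop is these rows themselves, and the rest is nuclear members. In that depth window the macrophage-like minus mesenchymal-like sum of nuclear-encoded subunits went from 1577 CPM to −1.38, and the log2 fold changes of Atp5e and Sdha turned from 1.20 and 0.41 to −0.11 and −0.023. The difference in mitochondria-encoded share went from −6.51 percentage points to −3.86 there and to −2.14 with a stricter filter on nuclei (at most 5% mitochondria-encoded UMIs). For T/NK-like nuclei that filter moved it from −4.74 to −1.38, since it removes the nuclei with high shares. Other scalings moved the median of all genes in the macrophage-like comparison to 0.17 (DESeq2) and −0.25 (no low-count filter), with 44 and 39 members called higher.

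Leaving out each library in turn gave 0 to 48 members called for KO against CO in mesenchymal-like and 0 to 40 in macrophage-like nuclei, the upper values without KO replicate 1. It gave 58 to 65 for macrophage-like and 31 to 41 for T/NK-like nuclei against mesenchymal-like ones. In mesenchymal-like nuclei same-numbered deviations correlated at 0.51, −0.23 and 0.39, and those of different numbers at −0.54 to 0.39. With so few libraries these values do not decide if the replicate numbers pair them. With the replicate block 0 members were called in each KO comparison, and the nuclear-encoded medians were −0.59, −0.41 and −0.57 in mesenchymal-like, macrophage-like and all nuclei. Of the values of single genes, 555 kept their direction and side of the threshold, 27 lost their call, 4 gained one and 2 reversed direction. Macrophage-like and T/NK-like nuclei were shallow, so subunits with few UMIs could not be tested within a UMI band. Fits for endothelial-like nuclei were not run.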
